A study of Mus musculus with 6 samples.

Results

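AMPA receptors carry most fast excitatory transmission in the brain. The 4 genes for the pore-forming subunits and 5 genes for proteins bound to the pore were followed here in ribosome-bound RNA of parvalbumin neurons, the fast-spiking inhibitory cells of the cortex. The members were taken by symbol: Gria1, Gria2, Gria3 and Gria4 encode the pore subunits GluA1 to GluA4, Cacng2, Cacng3 and Cacng8 encode transmembrane AMPA receptor regulatory proteins (TARPs), and Cnih2 and Cnih3 encode cornichon proteins. All 9 were found among 23306 rows of the count table, and all 9 passed the filter on low counts with 12449 genes in total.

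The mice were male C57BL6 in which Cre recombinase, driven by the parvalbumin gene, switched on a haemagglutinin-tagged Rpl22, so that ribosomes of Cre-expressing cells could be pulled down from frontal cortex. The knockout group had a conditional deletion of Fxr1 with the same Cre, and the other group is labelled wild type. Of 6 libraries, 4 were analysed: knockout replicates 1 and 3, and wild type replicates 2 and 3. Deletion is limited to cells in which Cre is active, and the labels give neither the age of the mice nor whether animals were pooled. They do not say whether each library came from its own animal, so every p-value rests on library spread that may be technical in part.

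An AMPA receptor is a tetramer of pore subunits, and which subunits are built in sets its properties. A single codon in the pore, the Q/R site, is read as glutamine in the gene, but in Gria2 transcripts it is converted to arginine by RNA editing. Receptors that hold edited GluA2 pass little calcium, and those that lack it pass more. Fast-spiking interneurons are known for receptors poor in GluA2 and rich in GluA1 and GluA4. TARPs and cornichons bind the pore, bring it to the surface and slow its closing. FXR1, a relative of the fragile X protein that binds RNA, is known from hippocampus to restrain synthesis of GluA2.

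The stretch around the Q/R site is shown because it is what sets Gria2 apart from its relatives once edited. Each line gives the coding strand of the mm10 reference from the GENCODE M21 transcripts, 45 bases within exon 11, with the Q/R codon in capitals.
Gria1: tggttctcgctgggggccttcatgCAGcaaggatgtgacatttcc
Gria2: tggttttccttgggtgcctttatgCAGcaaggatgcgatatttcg
Gria3: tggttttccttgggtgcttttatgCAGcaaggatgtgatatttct
Gria4: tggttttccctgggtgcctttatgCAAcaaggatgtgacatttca
The Gria2 stretch lies on the minus strand at chr3:80706893-80706937, with the codon at 80706911 to 80706913. The others lie at chr11:57243070-57243114 (Gria1, plus strand), chrX:41610241-41610285 (Gria3, plus strand) and chr9:4464119-4464163 (Gria4, minus strand). All 4 codons encode glutamine in the genome, as CAG in Gria1, Gria2 and Gria3 and as CAA in Gria4. Of the 45 bases, 3 differ from Gria2 in Gria3, 5 in Gria4 and 8 in Gria1. The deposited counts hold no bases of reads, so the edited share of Gria2 was not measured.

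The libraries held between 9696126 and 10301280 counts. Fxr1, the deleted gene, measured 17.8 and 18.7 CPM (counts scaled to equal library totals) in knockout, against 98.4 and 101 CPM in wild type. Its log2 fold change was −2.45 (SE 0.10; adjusted p = 1.77e-15 by edgeR's quasi-likelihood test). Pvalb, the gene of parvalbumin itself, had 248 and 241 CPM in knockout and 262 and 264 CPM in wild type. All 10 markers of parvalbumin neurons chosen for the check were present in every library, summing to 11211 and 11240 CPM in knockout and 11542 and 11667 CPM in wild type. Of that sum, Gad1 alone gave 4245 and 4048 CPM in knockout and 4354 and 4295 CPM in wild type. RNA of other cells was present too, and none of the marker lists had a gene at 0. The 9 excitatory neuron markers summed to 902 and 953 CPM in knockout and 943 and 862 CPM in wild type. Most of that sum was Camk2a, at 685 and 719 CPM in knockout and 723 and 663 CPM in wild type, above Pvalb in every library. Slc17a7 was below Pvalb, at 79.0 and 84.8 CPM in knockout and 85.5 and 67.5 CPM in wild type. The 6 astrocyte markers summed to 514 and 596 CPM in knockout and 540 and 503 CPM in wild type, and the 7 oligodendrocyte markers to 280.0 and 393 CPM in knockout and 304 and 274.3 CPM in wild type. Slc1a2 of the astrocyte list was also above Pvalb, at 451 and 522 CPM in knockout and 471 and 445 CPM in wild type. The 4 markers of oligodendrocyte precursors summed to 10.4 and 19.1 CPM in knockout and 12.3 CPM in both wild type libraries, and the 5 of microglia to between 12.6 and 13.6 CPM in all libraries. The 7 of striatal neurons summed to 88.5 and 96.4 CPM in knockout and 83.5 and 86.9 CPM in wild type, and the 6 of other interneurons to 198 and 247 CPM in knockout and 228 and 245 CPM in wild type. Excitatory neurons and glia also express AMPA receptor genes, and their part in the levels below was not tested. In such bulk RNA, fewer cells of a type and less RNA per cell cannot be told apart.

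The pore genes were among the abundant transcripts of the pull-down, and none differed detectably between the genotypes. Gria1 (mm10 chr11:57011387-57330244, as all gene positions here from GENCODE M21), the gene of a subunit found in receptors with and without GluA2, had 1073 and 1099 CPM in knockout and 1103 and 1076 CPM in wild type. It ranked 96 of 23306 rows by mean CPM. The genotypes overlapped, with both knockout libraries below the higher wild type library. The log2 fold change was −0.0044 (SE 0.06), with a 95% interval from −0.13 to 0.13.

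Gria2 (chr3:80681450-80802835), whose edited product makes the receptor nearly impermeable to calcium, had 479 and 556 CPM in knockout and 511 and 518 CPM in wild type. Knockout replicate 1 was the lowest and knockout replicate 3 the highest of the 4 libraries, with both wild type libraries between them. The log2 fold change was 0.0086 (SE 0.07), with a 95% interval from −0.14 to 0.15 (adjusted p = 0.998 by edgeR). As a fold, the interval ran from 0.909 to 1.11, which bounds the size of a change in the Gria2 level that this fit allows. The knockout libraries differed from each other by 0.21 on the log2 scale, and the wild type libraries by 0.018. Without knockout replicate 1 the log2 fold change was 0.10, and without knockout replicate 3 it was −0.088, and −0.0063 without wild type replicate 2, so its sign rested on which libraries were used. What was measured is the level of Gria2 RNA relative to all counts of the ribosome pull-down, which also held RNA of other cells. Total RNA of the same cells was not analysed here, so the translation of Gria2 per transcript was not measured.

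Gria3 (chrX:41400854-41678601), the gene of a subunit that often pairs with GluA2, had 448 and 449 CPM in knockout and 466 and 423 CPM in wild type. Its knockout libraries lay between the wild type libraries, and the log2 fold change was 0.015 (SE 0.07; 95% interval −0.13 to 0.16). Gria4 (chr9:4417896-4796234), the gene of a subunit with fast kinetics that is typical of fast-spiking cells, had 386 and 369 CPM in knockout and 383 and 390 CPM in wild type. The groups overlapped again, at a log2 fold change of −0.03 (SE 0.07; 95% interval −0.17 to 0.11). The summed level of the 4 pore genes was 2387 and 2473 CPM in knockout and 2463 and 2407 CPM in wild type. The difference in log2 of that sum, on TMM-scaled libraries, was −0.0023, at a two-sided p of 1 by an exact permutation test, which with 2 libraries against 2 cannot go below 0.333.

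**Figure D1:**
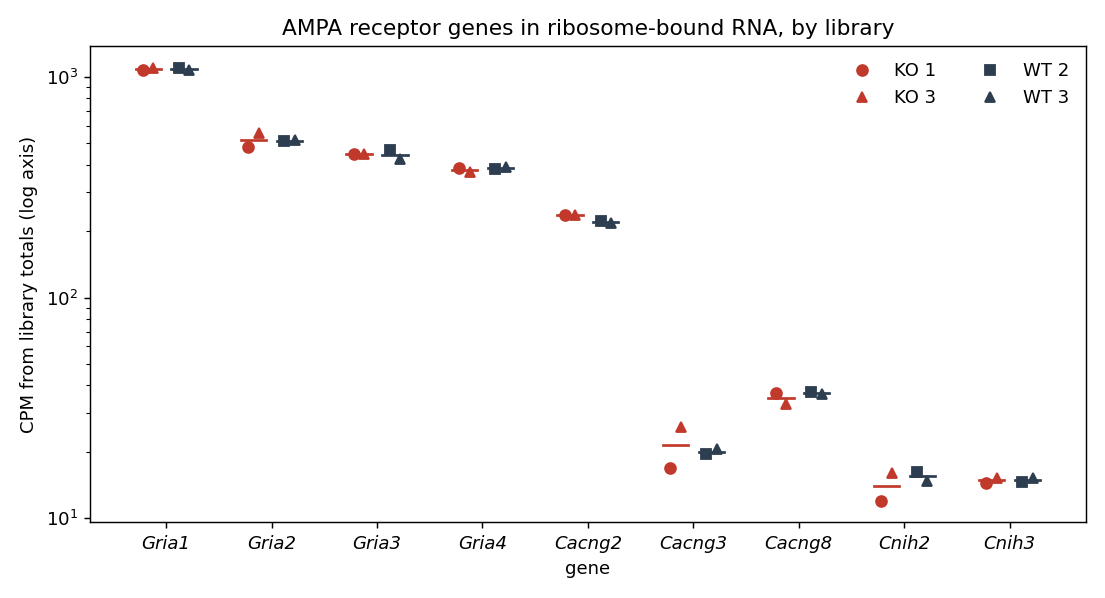
Level of each AMPA receptor gene in each library, in CPM from library totals on a log axis. Red points are knockout replicates 1 and 3, dark points wild type replicates 2 and 3, and short lines the mean of each genotype. Cacng2 is the gene whose points do not overlap between the genotypes, at 236.4 and 236.6 CPM in knockout and 223 and 217 CPM in wild type.

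Of the TARP genes among the members, Cacng2 was the most abundant. The TARP family also holds Cacng4, Cacng5 and Cacng7, which are in the list of other auxiliary subunits below. Cacng7 had 73.5 and 74.1 CPM in knockout and 76.8 and 75.5 CPM in wild type, above Cacng8 and Cacng3 in every library. Means of Cacng4 and Cacng5 over the libraries were 2.05 and 0.850 CPM. Cacng2 (chr15:77991748-78120028) encodes stargazin, the TARP whose loss in the stargazer mouse takes AMPA receptors from the surface of cerebellar granule cells. It had 236.4 and 236.6 CPM in knockout, against 223 and 217 CPM in wild type. Both knockout libraries lay above both wild type libraries, and Cacng2 was the 1 member of 9 whose genotypes did not overlap. Groups that do not overlap were seen for 30.2% of all tested genes, so 1 of 9 was no higher a share than the background. The log2 fold change of 0.10 (SE 0.07) did not pass, at an unadjusted p of 0.163 and an adjusted p of 0.998 by edgeR. Its 95% interval ran from −0.04 to 0.25, a fold from 0.970 to 1.19. An antisense gene, A730060N03Rik, shares 323 exon bases with Cacng2, and without a stated strand setting its reads cannot be told apart there.

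Cacng8 (chr7:3390683-3415648), a TARP gene best known from hippocampal pyramidal cells, had 37.1 and 33.0 CPM in knockout and 37.4 and 36.4 CPM in wild type. Its log2 fold change was −0.07 (SE 0.11; 95% interval −0.30 to 0.15). Cacng3 (chr7:122670492-122769393), a further TARP gene of forebrain neurons, had 16.8 and 25.95 CPM in knockout and 19.5 and 20.5 CPM in wild type. Knockout replicate 1 was lowest and knockout replicate 3 highest, with a gap of 0.63 on the log2 scale between them, against 0.07 between the wild type libraries. The log2 fold change of Cacng3 was 0.10 (SE 0.17; 95% interval −0.25 to 0.44). Without knockout replicate 1 it was 0.36, with an unadjusted p of 0.0198 and an adjusted p of 0.920 by edgeR, and without knockout replicate 3 it was −0.24.

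The cornichons were the least abundant members by counts. Cnih2 (chr19:5092868-5098521), which encodes a cornichon that slows receptor closing, had 12.0 and 15.9 CPM in knockout and 16.2 and 14.8 CPM in wild type. Knockout replicate 1 was lowest, with 122 counts, while the other libraries held 152 to 164. The log2 fold change was −0.15 (SE 0.16; 95% interval −0.48 to 0.18), and it turned to 0.032 without knockout replicate 1. Cnih3 (chr1:181352628-181460641), its close relative, had 14.4 and 15.3 CPM in knockout and 14.6 and 15.2 CPM in wild type, at a log2 fold change of −0.013 (SE 0.15; 95% interval −0.32 to 0.30). Knockout replicate 1 was the lowest library for 5 of the 9 members (Gria1, Gria2, Cacng3, Cnih2 and Cnih3), and for 30.1% of all tested genes. The lowest library differed between the marker sums, but every sum was lower in knockout replicate 1 than in knockout replicate 3. By gene, knockout replicate 1 was the lower for 7 of 7 oligodendrocyte, 4 of 4 precursor and 6 of 6 other interneuron markers. The same held for 6 of 9 excitatory, 5 of 6 astrocyte, 5 of 7 striatal, 5 of 10 parvalbumin neuron and 2 of 5 microglia markers. Knockout replicate 1 was lowest in the summed other interneuron (198 CPM) and precursor (10.4 CPM) markers. It was lowest by a small margin in the parvalbumin neuron markers (11211 CPM, beside 11240 CPM in knockout replicate 3) and the microglia markers (12.59 beside 12.64 CPM). Wild type replicate 3 was lowest in the excitatory neuron (862 CPM), astrocyte (503 CPM) and oligodendrocyte (274.3 CPM) markers, and wild type replicate 2 in the striatal markers (83.5 CPM). The part of these markers in the gap between the knockout libraries was not tested.

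Of the 9 members, 4 had a fold change above 0 and 5 below, and 0 passed the threshold of 0.05 on the adjusted p, against 0.0321% of all tested genes (4 of 12449, with 0.0161% in each direction). An unadjusted p under 0.05 was reached by 0 members in edgeR, DESeq2 and limma voom alike, against 3.23% of all tested genes in edgeR. The median log2 fold change of the members was −0.0044, beside −0.0015 over all tested genes. The 4 pore genes and Cacng2 had standard errors of 0.06 to 0.07, and the median over the 9 members was 0.07, against 0.13 over all tested genes. The fit shares information on spread over genes, so these errors do not rest on each gene's own libraries alone. Gria2 and Cacng2 both had 0.07, while their knockout libraries differed by 0.21 and 0.00086 on the log2 scale. Among the pore genes, the 95% intervals reached from −11.3% of the wild type level (the lower bound of Gria4) to 11.5% (the upper bound of Gria3). For Cacng3 and Cnih2, at 122 to 267 counts per library, the upper bound of Cacng3 was 36.1% and the lower bound of Cnih2 −28.1%. Such a bound is not the smallest change that would have passed the threshold, which was not determined.

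**Figure D2:**
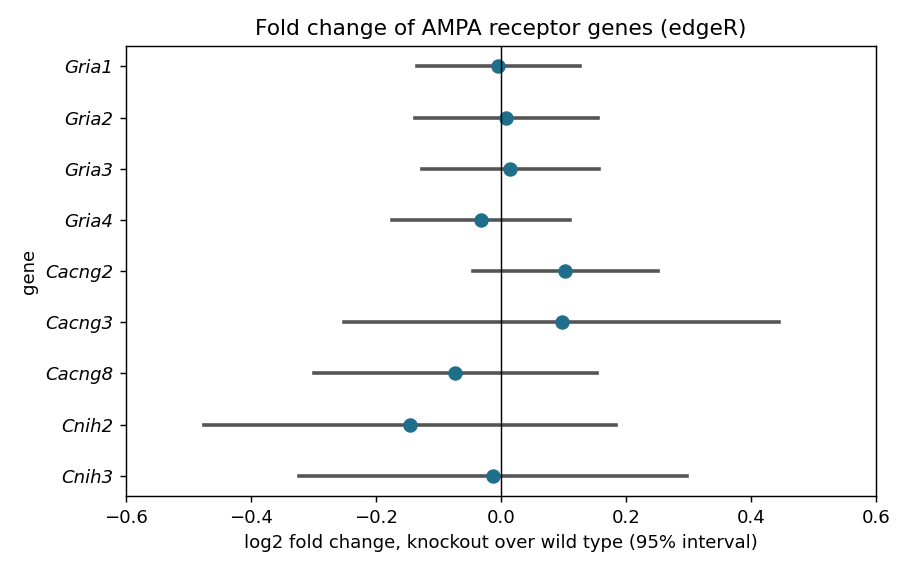
Log2 fold change of each member, knockout over wild type, by edgeR, with its 95% interval as a bar and 0 as the vertical line. Every interval spans 0, from the narrow one of Gria1 (−0.13 to 0.13) to the wide one of Cacng3 (−0.25 to 0.44).

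Levels of different genes can be compared only per length of transcript, here as CPM per kilobase of annotated exon (all unique exon bases of a gene in GENCODE M21). On that scale Gria1 stood highest at 180 ± 2.56 CPM per kb (SD over 4 libraries), followed by Gria4 at 60.6 ± 1.44, Gria3 at 45.3 ± 1.77, Cacng2 at 41.5 ± 1.75 and Gria2 at 33.2 ± 2.02 CPM per kb. Cacng8 (15.3 ± 0.857), Cnih2 (10.8 ± 1.40), Cacng3 (7.45 ± 1.38) and Cnih3 (5.41 ± 0.163 CPM per kb) came below. Neighbours in this order did not overlap over the 4 libraries, apart from Cnih2 and Cacng3. Gria1 was 2.97 times as high as Gria4, the next gene, while Gria3 was 1.09 times as high as Cacng2.

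The order below Gria1 depended on the length used. Gria2 has 15548 annotated exon bases but a coding sequence of 2649, and Gria3 has 9859 and 2664, while Gria1 has 6043 and 2721 and Gria4 has 6305 and 2706. Per kilobase of coding sequence Gria1 was again highest, at 400 CPM per kb, but Cacng2 (236 CPM per kb) and Gria2 (195 CPM per kb) followed, above Gria3 (168) and Gria4 (141 CPM per kb). With the longest transcript as length, Gria2 was below Gria1, Gria3 and Gria4. Gria1 led under all 5 ways to set the length, plain CPM included, and Gria2 was the lowest of the pore genes under 3 of them. Which transcripts the cells use was not measured.

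The share of Gria2 among the pore genes was therefore given with each length. Per kilobase of all exon bases it was 9.79% and 11.1% in knockout and 10.2% and 10.5% in wild type, which is 10.4% ± 0.939 in knockout and 10.4% ± 0.259 in wild type (SD, n = 2 each). The knockout libraries enclosed the wild type libraries, and the difference of 0.10 percentage points had a two-sided p of 1 by an exact permutation test. It turned to −0.56 points without knockout replicate 3 and −0.08 points without wild type replicate 2, and was 0.76 points without knockout replicate 1. With the longest transcript as length the share was 12.4% in knockout and 12.3% in wild type, and per coding length 21.6% in knockout and 21.5% in wild type. As plain counts, Gria2 took 4874 of 24266 pore counts in knockout replicate 1 (20.1%, 95% Wilson interval 19.6% to 20.6%) and 5718 of 25441 in knockout replicate 3 (22.5%, 22.0% to 23.0%). It took 4957 of 23882 in wild type replicate 2 (20.8%, 20.2% to 21.3%) and 5334 of 24798 in wild type replicate 3 (21.5%, 21.0% to 22.0%). The intervals cover counting error only, and those of the 2 knockout libraries do not touch, so libraries of one genotype differed by more than counting error.

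**Figure D3:**
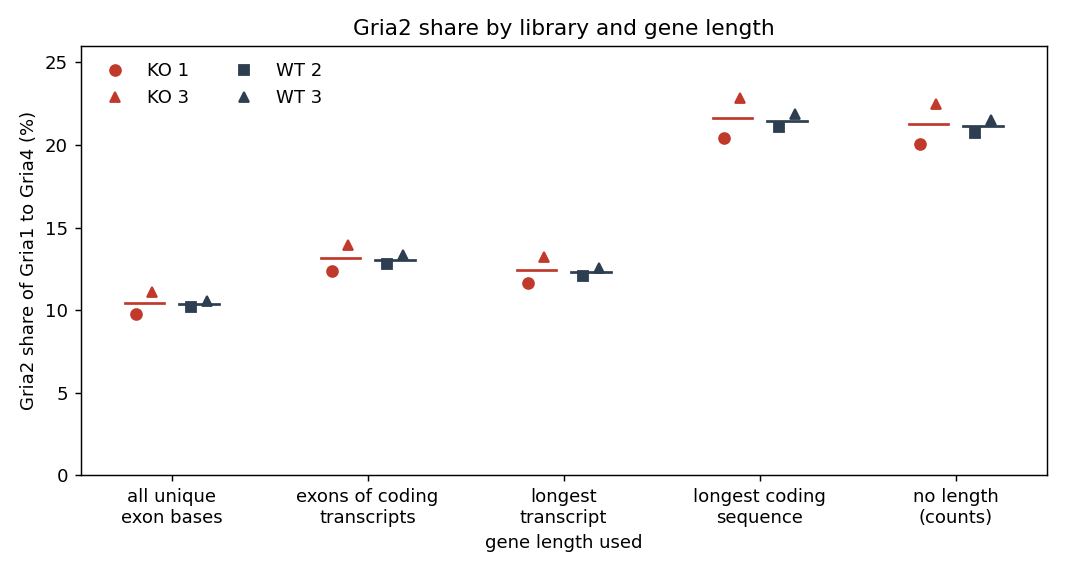
Share of Gria2 in the summed level of Gria1 to Gria4, in percent, for each library under 5 ways to set the gene length. Red points are knockout, dark points wild type, and short lines their means. The share goes from 10.4% in both genotypes with all exon bases to 21.6% in knockout and 21.5% in wild type with coding length, while under each length the wild type points lie between the knockout points.

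The shares of the other pore genes also overlapped between the genotypes. Per kilobase of all exon bases, Gria1 took 56.3% and 56.5% of the pore level in knockout and 56.5% and 56.3% in wild type. Gria4 took 19.4% and 18.2% in knockout and 18.8% and 19.6% in wild type, and Gria3 14.4% and 14.2% in knockout and 14.6% and 13.6% in wild type. Gria1 had the narrowest range over the 4 libraries, but its share depended on the length. Its mean over the libraries was 48.8% with the longest transcript and 49.1% with exons of protein-coding transcripts. It was 44.3% per coding length and 44.7% as plain counts. Shares of the TARPs were taken among Cacng2, Cacng3 and Cacng8 alone. They leave out Cacng7, which at 30.7 CPM per kb of all exon bases stood above Cacng8. Cacng2 took 66.2% and 64.7% in knockout and 63.8% and 63.3% in wild type. Cacng8 took 24.4% and 21.2% in knockout and 25.1% and 24.9% in wild type. Cacng3 took 9.35% and 14.1% in knockout and 11.0% and 11.8% in wild type. The TARP shares of Cacng2 were higher and those of Cacng8 lower in both knockout libraries than in both wild type libraries, with means for Cacng2 of 65.5% ± 1.10 in knockout and 63.5% ± 0.403 in wild type (SD, n = 2 each). The smallest two-sided p an exact permutation test allows here is 0.333. Per coding length the shares of Cacng2 overlapped, at 83.8% and 82.0% in knockout and 82.1% and 81.7% in wild type. Cnih2 took 62.7% and 67.7% of the summed level of Cnih2 and Cnih3 in knockout and 69.0% and 66.0% in wild type. Per coding length this share was 49.4% and 55.0% in knockout and 56.4% and 53.1% in wild type. As plain counts its mean over the libraries was 49.6%. Cnih1 and Cnih4 of the wider list, at 19.3 and 6.44 CPM per kb of all exon bases, were left out.

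**Figure D4:**
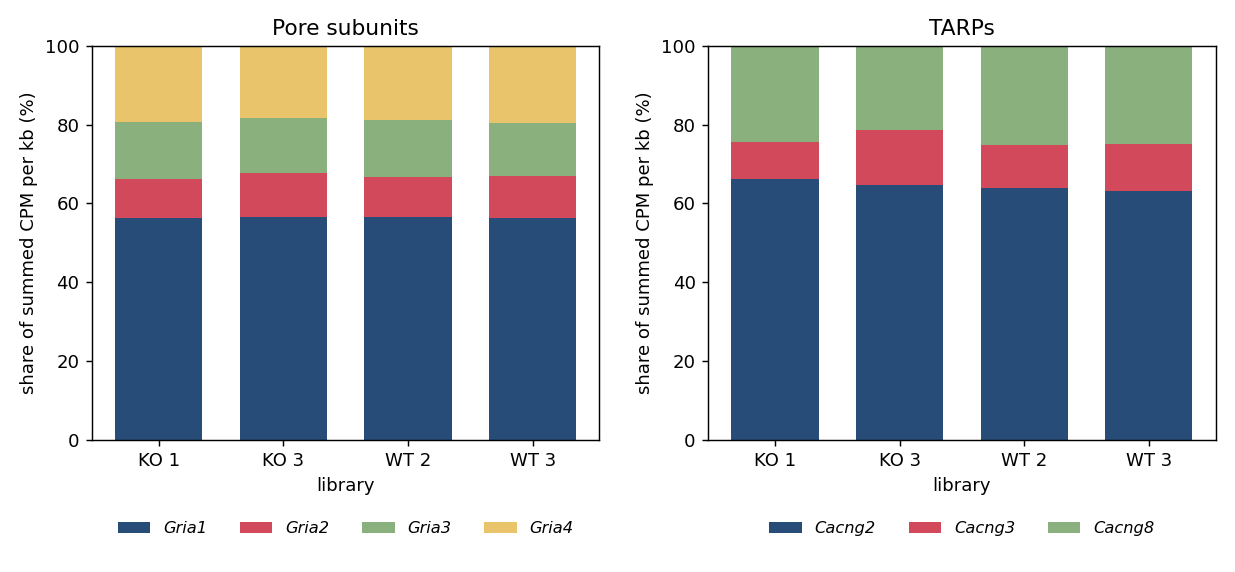
Composition of the pore subunits (left) and of the TARPs (right) in each library, as shares of summed CPM per kb of annotated exon, with knockout libraries (KO) left of wild type libraries (WT). At this length Gria1 takes 56.3% to 56.5% of the pore level in every library. Cacng2 takes 63.3% to 66.2% of the summed level of Cacng2, Cacng3 and Cacng8, without Cacng7.

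The pore and its partners were also compared as sums. The 5 auxiliary genes summed to 317 and 327 CPM in knockout and 311 and 304 CPM in wild type, of which Cacng2 made up 71.4% to 74.7%. The difference in log2 of the sum, on TMM-scaled libraries, was 0.07 with genotypes that did not overlap, at an exact two-sided permutation p of 0.333, the smallest that this design allows. It was −0.016 when the members' log2 CPM were averaged in place of the sum, which gives each gene the same weight. Per kilobase of all exon bases, the pore genes were set against the sum of Cacng2, Cacng3 and Cacng8. They stood 4.86 and 4.85 times as high as that sum in knockout and 5.09 and 5.07 times in wild type. That TARP sum stood 4.63 and 3.86 times as high as Cnih2 and Cnih3 together in knockout and 3.71 and 3.82 times in wild type. Both ratios hold for this length alone. They leave out Cacng7 and Cnih1, at 30.7 and 19.3 CPM per kb.

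The wider AMPA receptor pathway was followed in 4 lists of 55 symbols, of which 53 were found and tested. By edgeR 0 passed, and 0 did so by DESeq2 or limma voom. In edgeR 23 were higher and 30 lower in knockout, and 2 of the 53 had an unadjusted p under 0.05, beside 3.23% of all tested genes. The genotypes did not overlap for 17 of the 53, beside 30.2% of all tested genes. Of 23 tested genes for other auxiliary subunits and complex constituents, 11 were higher and 12 lower, with a median log2 fold change of −0.017. Shisa9, the gene of the auxiliary subunit CKAMP44, had 78.0 and 67.7 CPM in knockout and 89.9 and 80.8 CPM in wild type, with both knockout libraries below both wild type libraries. Its log2 fold change of −0.23 (SE 0.09) had an unadjusted p of 0.0223 and an adjusted p of 0.998 by edgeR. Prrt1, whose product binds AMPA receptors outside the synapse, had 37.7 and 38.7 CPM in knockout and 35.9 and 30.5 CPM in wild type, at 0.20 (SE 0.11). Olfm1, a secreted protein that binds receptor complexes, was the most abundant of the list per length, at 166 ± 9.32 CPM per kb of all exon bases over 4 libraries, and had a log2 fold change of −0.09 (SE 0.07).

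Of 12 genes for assembly and surface delivery, 3 were higher and 9 lower, with a median log2 fold change of −0.029. Cpt1c, whose product binds GluA1 in the endoplasmic reticulum, had 46.8 and 43.4 CPM in knockout and 52.9 and 52.7 CPM in wild type. Both knockout libraries were below both wild type libraries, at a log2 fold change of −0.23 (SE 0.10; unadjusted p = 0.0304 and adjusted p = 0.998 by edgeR). Myo5a, a myosin motor of dendritic transport, had 1906 and 1788 CPM in knockout and 1648 and 1811 CPM in wild type, at 0.10 (SE 0.07). Nsf, an ATPase that binds GluA2, was the most abundant per length at 218 ± 7.07 CPM per kb, with a log2 fold change of −0.05 (SE 0.06).

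Of 15 genes for anchoring at the synapse, 8 were higher and 7 lower, with a median log2 fold change of 0.0095. Sdcbp, which encodes the scaffold syntenin, had 113 and 102 CPM in knockout and 122 and 116 CPM in wild type, at −0.14 (SE 0.08). Grip2, a scaffold that binds the end of GluA2, had 109 and 107 CPM in knockout and 99.2 and 99.7 CPM in wild type, at 0.12 (SE 0.08). Epb41l1, a cytoskeletal adaptor of GluA1, was the most abundant per length at 67.9 ± 1.23 CPM per kb, with a log2 fold change of −0.0031 (SE 0.07).

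The enzymes that edit adenosines in RNA were looked at as the last list. Adarb1, which encodes the enzyme that edits the Q/R site of Gria2, had 877 and 838 CPM in knockout and 867 and 846 CPM in wild type. The groups overlapped, at a log2 fold change of 0.0031 (SE 0.07; 95% interval −0.13 to 0.14). Adar, the gene of a second editing enzyme, had 326 and 431 CPM in knockout and 330 and 446 CPM in wild type, at −0.04 (SE 0.27). The libraries of one genotype differed by 0.40 on the log2 scale in knockout and 0.44 in wild type, so the Adar level was poorly bounded. Adarb2, whose product has no known editing activity, had 5.61 and 4.08 CPM in knockout and 8.25 and 5.24 CPM in wild type, at −0.47 (SE 0.25; unadjusted p = 0.0776 by edgeR).

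**Figure D5:**
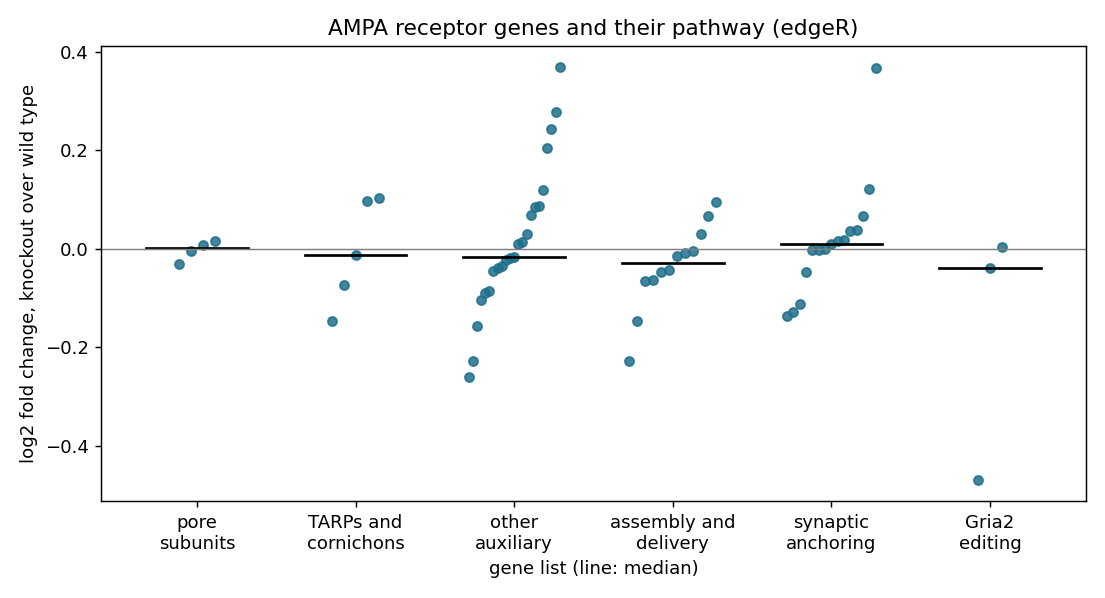
Log2 fold change, knockout over wild type, by edgeR, of the 4 pore genes, the 5 TARP and cornichon genes and the 4 further lists of the AMPA receptor pathway. Each point is a gene and each line a list's median, which runs from −0.038 for the 3 editing genes to 0.0095 for the 15 anchoring genes.

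The genes whose pattern over the 4 libraries was nearest to that of Gria2, by the root mean square distance of log2 CPM centred on each gene's mean, were Ppp3r1 (0.0080), Zc3h13 (0.0095) and Rqcd1 (0.0095), among 6604 genes of at least 20 CPM. The median distance of all those genes was 0.10. Ppp3r1, which encodes the regulatory subunit of calcineurin, had 357 and 412 CPM in knockout and 385 and 387 CPM in wild type, with the knockout libraries on either side of the wild type libraries as for Gria2. With 4 libraries such nearness is a description and carries no test.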

How the data were processed

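RNA pulled down with tagged ribosomes went into stranded total RNA libraries, per the labels' protocols. The submitters' processing notes name STAR and mm10. How reads were counted, on which annotation and with which strand setting, is not stated. The deposited values are raw read counts for each symbol, without normalization. Exons of 6 members overlap another annotated gene, so their counts may hold or lack some shared reads.

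A column was used where its name matched 1 sample's title. This held for 4 columns, and 2 that share a single name were not used. Replicate numbers follow accession order and pair no samples. The whole table was fitted with edgeR 4.0.16 in R 4.3.3 (TMM, filterByExpr, robust quasi-likelihood fits, Benjamini-Hochberg adjustment, threshold 0.05), and the code was tested on simulated data. Standard errors are the log2 fold change over the square root of the F statistic. CPM values use library totals. Alternatives used DESeq2 1.42.0, limma 3.58.1, other scaling, filters and gene lengths, and each library left out.

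The 9 members and the gene lists were chosen with earlier results of these data known. Named genes are all members, Fxr1, and, of each list, the 2 genes with the smallest p and the most abundant per length. Pvalb, Gad1, Slc17a7, Camk2a and Slc1a2 are named as marker levels. Cacng4, Cacng5, Cacng7, Cnih1 and Cnih4 are named after their values were seen. Symbols missing from the table were matched through RefSeq synonyms, which placed 5 of 7. Of the neighbours of Gria2, the nearest 3 are named.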

Additional observations from a re-analysis of the deposited data

How the results depend on the processing

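None of the 9 members passed the threshold under any of 11 alternatives each (adjusted p from 0.915 to 0.99999 by edgeR, DESeq2 or limma voom), and none of the 53 pathway genes did. Other scaling, tools or filters turned the direction of no member. Leaving out a library turned it in 10 of 36 fits, for every member but Cacng2. The log2 fold changes then ranged from −0.013 to 0.0076 for Gria1, −0.088 to 0.10 for Gria2, −0.043 to 0.079 for Gria3, −0.078 to 0.014 for Gria4, 0.09 to 0.12 for Cacng2, −0.24 to 0.36 for Cacng3, −0.17 to 0.021 for Cacng8, −0.35 to 0.032 for Cnih2 and −0.046 to 0.027 for Cnih3. The difference in Gria2 share then ranged from −0.56 to 0.76 points, the log2 difference of the summed pore level from −0.015 to 0.010, and that of the summed auxiliary level from 0.06 to 0.08. The summed auxiliary difference was −0.016 with the mean of log2 CPM. A lone library is assumed to vary like the other genotype. The level of the Gria2 share moved with gene length, to 13.1% in knockout and 13.0% in wild type with exons of protein-coding transcripts, a length chosen after seeing the data. The count of all genes past the threshold was 4, and it was 1 with library totals, 2 by DESeq2, 13 with no filter on low counts and 9 to 48 with a library left out (29 without knockout replicate 1, 48 without knockout replicate 3, and, for wild type, 9 without replicate 2 and 25 without replicate 3). The cause was not tested. Fxr1 passed in all 11 alternatives. The lowest counts were those of Cacng3, Cnih2 and Cnih3, at 122 to 267 per library, and the parts of depth and of library spread in their wide intervals were not separated. No paired analysis was possible because replicate numbers come from accession order.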
